A study of Mus musculus with 6 samples.

Results

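The HoxD cluster and its neighbour Evx2 were described in the tailbuds of E10.5 mouse embryos that carried, or did not carry, a transgene for Nr6a1. The set held 10 genes of the 54134 in the table of read counts: Evx2, Hoxd13, Hoxd12, Hoxd11, Hoxd10, Hoxd9, Hoxd8, Hoxd4, Hoxd3 and Hoxd1, each found by its exact symbol. RNA-seq libraries came from 4 wildtype embryos, which were transgene-negative littermates, and from 2 Cdx2P:Nr6a1 embryos, all on a C57BL/6 strain and all dissected as the tissue caudal to the last-formed somite. The transgene placed the long-isoform coding sequence of Nr6a1 under the Cdx2 promoter, and each transgenic embryo arose from its own pronuclear injection, so that the 2 embryos were not members of a line and could differ in integration site and copy number. The comparison asked what happened to HoxD expression when Nr6a1, an orphan nuclear receptor that is normally switched off in the tailbud by this stage, was kept on there. The sample labels and methods give the stage as E10.5, whereas a heading in the study's source data for these libraries names an earlier stage.

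Hox genes encode homeodomain transcription factors that give cells of the body axis their position. In each Hox cluster the genes lie in the order in which they are switched on and in which they act from head to tail, a property known as colinearity. In the HoxD cluster Hoxd1 stands at the early, anterior end and Hoxd13 at the late, posterior end, and Evx2, an even-skipped homeobox gene, lies beyond Hoxd13 and is read from the opposite strand. The HoxD genes are also known for their part in limb and external genital development, and the group 13 genes as the last to be activated in the elongating tail.

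Nr6a1 marked the transgenic embryos without overlap. Its level was 3.91, 5.18, 5.53 and 6.89 CPM (read counts scaled to the same total in each library) in the wildtype libraries and 23.4 and 33.8 CPM in Cdx2P:Nr6a1 replicates 1 and 2. The fitted log2 fold change was 2.41 (SE 0.20, edgeR quasi-likelihood test, adjusted p = 0.00132). The counts did not separate transgene RNA from endogenous Nr6a1 RNA. Total counts ran from 44073460 to 67183802 per library, and the biological coefficient of variation of the fit was 9.40%. In bulk tissue, fewer cells expressing a gene cannot be told apart from less of its RNA per cell. All 8 tailbud progenitor markers examined were kept for testing, and T, the Brachyury gene, averaged 1637 TPM (a level corrected for gene length and scaled to the same total in each library) in wildtype and 1452 TPM in transgenic libraries, so the labelled tissue carried its defining marker.

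The cluster lay on mouse chromosome 2 in build mm10, with Evx2 from 74652991 to 74659557 on the minus strand and the HoxD genes on the plus strand, from the start of Hoxd13 at 74668310 to the end of Hoxd1 at 74765142. The 250 bases upstream of the RefSeq starts of 4 genes are printed here to set the posterior pair whose RNA was lower in the transgenic libraries, Hoxd13 and Hoxd12, beside Hoxd10, the most abundant gene with no call, and Hoxd4, the window with the most motif matches. Coordinates are GRCm38.p6, the RefSeq starts need not be those of the counted gene models, sequences run 5′ to 3′ on the coding strand, and capitals mark matches to AGGTCA, the half-site recognised by nuclear receptors, or to TTTATNG, a site of the caudal (Cdx) family, on either strand.
Hoxd13, chr2:74667975-74668224, + strand: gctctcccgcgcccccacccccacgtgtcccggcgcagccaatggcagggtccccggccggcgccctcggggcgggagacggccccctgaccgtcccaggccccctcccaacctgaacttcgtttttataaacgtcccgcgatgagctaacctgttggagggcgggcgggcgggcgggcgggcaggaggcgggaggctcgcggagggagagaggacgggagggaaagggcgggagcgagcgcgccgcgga
Hoxd12, chr2:74674763-74675012, + strand: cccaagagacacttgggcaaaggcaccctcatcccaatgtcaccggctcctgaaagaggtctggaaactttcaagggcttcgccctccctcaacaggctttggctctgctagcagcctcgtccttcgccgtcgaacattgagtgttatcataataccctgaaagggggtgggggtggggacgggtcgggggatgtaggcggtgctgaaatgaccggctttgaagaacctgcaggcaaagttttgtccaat
Hoxd10, chr2:74691641-74691890, + strand: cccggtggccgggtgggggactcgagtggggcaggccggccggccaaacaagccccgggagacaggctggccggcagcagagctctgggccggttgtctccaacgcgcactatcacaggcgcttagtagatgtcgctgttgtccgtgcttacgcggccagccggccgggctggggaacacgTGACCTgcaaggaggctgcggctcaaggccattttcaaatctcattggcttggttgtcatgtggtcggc
Hoxd4, chr2:74721728-74721977, + strand: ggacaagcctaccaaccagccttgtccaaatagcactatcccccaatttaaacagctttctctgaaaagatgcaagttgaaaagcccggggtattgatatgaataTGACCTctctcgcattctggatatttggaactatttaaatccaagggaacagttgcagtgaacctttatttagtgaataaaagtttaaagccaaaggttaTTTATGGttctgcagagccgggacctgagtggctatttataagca
The Hoxd13 and Hoxd12 windows held none of the motifs searched. The match in the Hoxd10 window was AGGTCA on the opposite strand, and the Hoxd4 window held AGGTCA on the opposite strand and TTTATNG on the same strand. Over the 11 windows of the 10 genes (Hoxd11 has 2 starts in RefSeq) AGGTCA was present in 4, those of Hoxd10, Hoxd8, Hoxd3 and Hoxd4, against 14.02% of all 32851 promoter windows of the same length. The longer TCAAGGTCA, which contains AGGTCA, was in 0 of the 11 windows and in 0.387% of all windows. TTTATNG was in 2 of them, those of Evx2 and Hoxd4, against 9.81% of all windows. The Hoxd13 window has a GC content of 74.4%, the Hoxd12 window 55.6% and the Hoxd4 window 40.4%. Those matches describe letters in a window and not bound sites.

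In wildtype tailbuds the posterior genes of the cluster were the more abundant, but the order of levels was not the order of the genes. Hoxd12 was highest at 313 ± 18.7 TPM (SD, n = 4), followed by Hoxd10 at 279 ± 22.4 TPM, Hoxd11 at 196 ± 13.8 TPM and Hoxd13 at 174 ± 11.1 TPM. Below them stood Hoxd8 at 94.5 ± 9.70 TPM, Hoxd9 at 82.4 ± 6.85 TPM and Hoxd1 at 74.0 ± 9.46 TPM. Hoxd4 at 43.4 ± 4.54 TPM and Hoxd3 at 13.3 ± 1.53 TPM were lower still, and Evx2 was barely detected at 0.485 ± 0.0843 TPM. Within each wildtype library every gene ranked above the next in this order. Between libraries the ranges of Hoxd12 and Hoxd10, of Hoxd11 and Hoxd13, of Hoxd8 and Hoxd9 and of Hoxd9 and Hoxd1 overlapped. The place of Hoxd4 in that order depends on exon bases shared with other genes, which appear to lower the values of Hoxd4 and Hoxd3. Over unshared exon bases Hoxd4 averaged 87.2 TPM in wildtype, above Hoxd9 at 79.0 TPM and Hoxd1 at 71.0 TPM, and Hoxd3 averaged 34.3 TPM. The order of Hoxd12 and Hoxd10 was the other way round in both transgenic libraries, where Hoxd10 averaged 290 ± 16.4 TPM (SD, n = 2) and Hoxd12 210 ± 44.7 TPM. Hoxd13, clearly above Hoxd8 in wildtype, averaged 102 TPM in the transgenic libraries, the same rounded value as Hoxd8, and exceeded it in 1 of the 2.

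**Figure D1:**
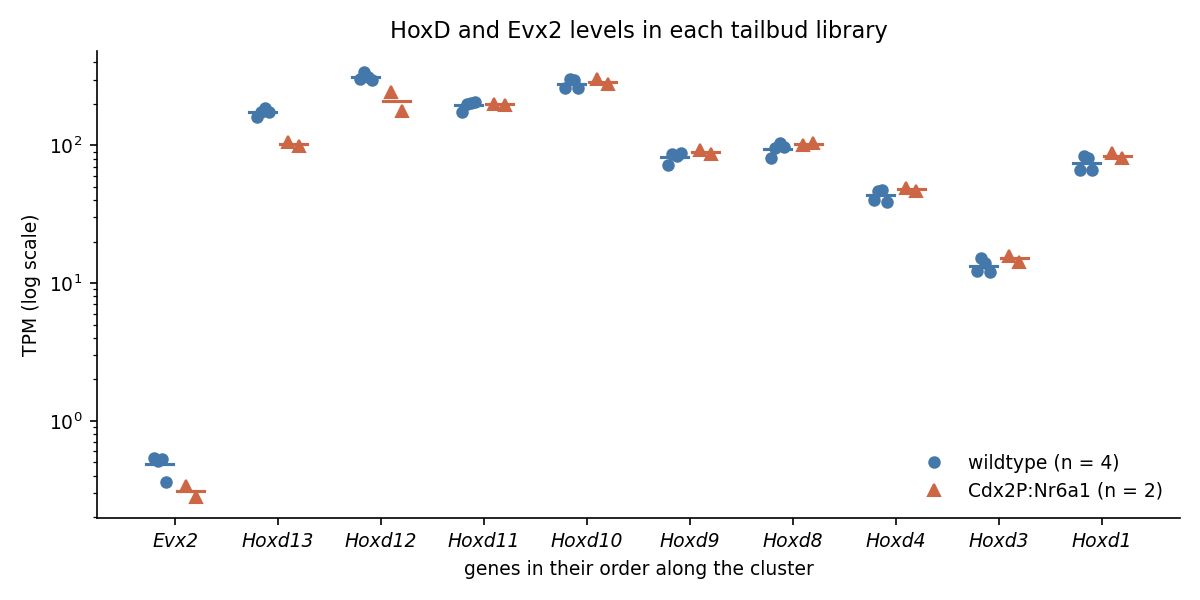
Level of each gene in TPM on a log axis, in the order of the genes along the cluster from Evx2 to Hoxd1, with 1 point per library (circles, 4 wildtype; triangles, 2 Cdx2P:Nr6a1) and a bar at each group mean. Transgenic points lie below all wildtype points for Evx2, Hoxd13 and Hoxd12 and overlap the wildtype range or lie close to it for the other 7 genes.

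The genes at the posterior end, Hoxd13 and Hoxd12, were lower in Cdx2P:Nr6a1 tailbuds, and no gene from Hoxd11 to Hoxd1 passed the test in either direction. Of the 10 genes, 9 were kept by the filter on low counts, 2 of them were called lower and 0 higher at an adjusted p under 0.05. Among all 12733 genes tested, 0.809% were called lower and 0.785% higher, with a median log2 fold change over all of them of -0.0007.

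Hoxd13, the most posterior HoxD gene, had the more uniform fall. Its level was 118, 122, 131 and 129 CPM in wildtype replicates 1 to 4 and 76.1 and 70.6 CPM in the transgenic replicates. Both transgenic values lay well below the lowest wildtype value. Hoxd13 fell by 0.77 on the log2 scale (SE 0.059, edgeR quasi-likelihood test, adjusted p = 0.00121), that is to 0.585 of the wildtype level with a 95% interval from -0.91 to -0.64 in log2. Separate Hoxd13 estimates from each transgenic replicate, with the other left out, were -0.72 and -0.82, and the call was kept in 15 of 15 alternative fits, with adjusted p between 6.2e-33 and 0.0231.

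Hoxd12, the next gene along and another regulator of caudal and distal limb structures, fell less evenly. The wildtype libraries held 228, 245, 223 and 223 CPM and the transgenic libraries 177 and 131 CPM. Neither transgenic value reached the wildtype range, and replicate 2 was far lower than replicate 1. The fall was 0.58 on the log2 scale (SE 0.10, edgeR quasi-likelihood test, adjusted p = 0.0272, 95% interval from -0.81 to -0.35), to 0.668 of the wildtype level. Without Cdx2P:Nr6a1 replicate 2 the log2 fold change was -0.38 (edgeR adjusted p = 0.0737) and without replicate 1 it was -0.81 (edgeR adjusted p = 0.0078). Leaving out wildtype replicate 1, 2 or 4 also moved the edgeR adjusted p past the threshold, to 0.0526, 0.0551 and 0.0544, with log2 fold changes between -0.60 and -0.55. With all libraries, robust estimation gave -0.58 (edgeR adjusted p = 0.0514). The Hoxd12 call was kept in 10 of 15 alternative fits. Cdx2P:Nr6a1 replicate 2, the lower of the pair for both genes, also had the higher Nr6a1 level and a summed macrophage marker level of 86.6 TPM, against 10.04 to 23.2 TPM in wildtype libraries and 18.0 TPM in replicate 1. Most of that sum was Lyz2, at 75.4 TPM in replicate 2, and without Lyz2 the other 4 macrophage markers summed to 11.2 TPM in replicate 2, 4.90 TPM in replicate 1 and 6.35 to 16.9 TPM in wildtype. The part of Nr6a1 level or of Lyz2 in the Hoxd12 difference was not tested. Y-linked genes were high in wildtype replicate 3 and Cdx2P:Nr6a1 replicate 2, and with their summed level as a covariate the log2 fold change of Hoxd12 was -0.55 (edgeR adjusted p = 0.0206).

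**Figure D2:**
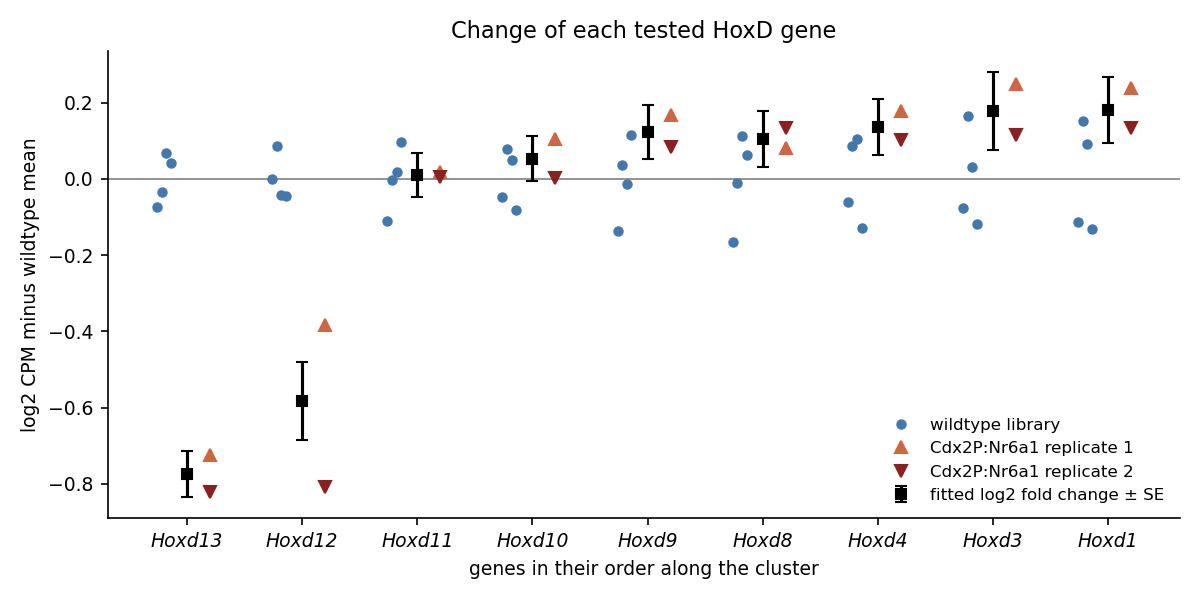
Level of each tested HoxD gene as log2 CPM minus the wildtype mean (y axis), in gene order (x axis), for each library, beside the fitted log2 fold change with its standard error (black squares). Hoxd13 stands at -0.77 and Hoxd12 at -0.58, where the 2 transgenic libraries are farthest apart, and the other 7 genes stand between 0.01 and 0.18.

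Evx2 fell below the filter and could be described only by its few reads. The wildtype libraries held 33, 34, 35 and 20 reads and the transgenic libraries 18 and 23 reads. As CPM these were 0.671, 0.609, 0.626 and 0.445 against 0.408 and 0.342, so that the transgenic libraries were again below every wildtype library, by a small margin. An exact permutation test of the group means, two-sided, gave p = 0.067, the smallest that 15 arrangements allow. With no filter on low counts the log2 fold change was -0.67 (SE 0.37, edgeR adjusted p = 0.687), and with the filter of edgeR's filterByExpr it was -0.68 (SE 0.30, edgeR adjusted p = 0.506). A difference in Evx2 was thus not detectable at this depth. Its paralogue Evx1, next to the HoxA cluster, was far more abundant, at 197 TPM in wildtype and 209 TPM in transgenic libraries (log2 fold change 0.08, SE 0.077, edgeR adjusted p = 0.86).

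Hoxd11 and Hoxd10, the Abdominal-B type genes that precede Hoxd12 along the cluster, stayed close to the wildtype levels. Hoxd11 was at 219, 238, 241 and 255 CPM in wildtype and 243 and 239 CPM in transgenic libraries. Both transgenic values fell in the middle of the wildtype range. The log2 fold change of Hoxd11 was 0.01 (SE 0.057, 95% interval from -0.12 to 0.14, edgeR adjusted p = 0.979). Hoxd10 was at 140, 155, 151 and 138 CPM in wildtype and 158 and 146 CPM in transgenic libraries. The Hoxd10 groups overlapped, with Cdx2P:Nr6a1 replicate 1 just above the wildtype range. Its log2 fold change was 0.05 (SE 0.059, 95% interval from -0.08 to 0.19, edgeR adjusted p = 0.884). Both intervals lie entirely above those of Hoxd13 and Hoxd12. The interval of Hoxd13 ends at -0.64 and that of Hoxd12 at -0.35, while that of Hoxd11 begins at -0.12.

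Hoxd9 and Hoxd8, of the trunk to lumbar paralogue groups, were close to wildtype. Hoxd9 ranged from 45.9 to 55.1 CPM in wildtype and stood at 57.5 and 53.8 CPM in transgenic libraries (log2 fold change 0.12, SE 0.070, edgeR adjusted p = 0.647). Hoxd8 ranged from 66.1 to 80.9 CPM in wildtype and stood at 79.7 and 81.9 CPM in transgenic libraries (log2 fold change 0.10, SE 0.074, edgeR adjusted p = 0.764). In each gene 1 transgenic library lay just above the wildtype range and the other within it.

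The anterior genes Hoxd4, Hoxd3 and Hoxd1, which pattern the hindbrain and neck, were near the top of the wildtype range or just above it. Hoxd4 ranged from 33.7 to 39.6 CPM in wildtype and was 42.0 and 39.5 CPM in transgenic libraries (log2 fold change 0.14, SE 0.073, edgeR adjusted p = 0.617). Hoxd3 ranged from 14.8 to 18.1 CPM in wildtype and was 19.2 and 17.4 CPM in transgenic libraries (log2 fold change 0.18, SE 0.10, edgeR adjusted p = 0.653). Hoxd1 ranged from 36.2 to 44.2 CPM in wildtype and was 47.1 and 43.5 CPM in transgenic libraries (log2 fold change 0.18, SE 0.087, edgeR adjusted p = 0.537). Replicate 1 was above and replicate 2 within the wildtype range in each of the 3 genes. Reads of Hoxd4 and Hoxd3 are uncertain, since 52.3% and 62.8% of their annotated exon bases are shared with another gene.

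Across Hoxd11 to Hoxd1, the 7 genes had a median log2 fold change of 0.12, from 0.01 to 0.18, all 7 above 0. They are the tested HoxD genes left after the 2 called lower. Of all 9 tested HoxD genes 7 were above 0, where 49.7% of all tested genes were. None of the 7 had an unadjusted p under 0.05 in edgeR, and 0 of them were called in any of the 15 alternative fits. By CPM, both transgenic libraries lay below all wildtype libraries for 2 of the 9 tested HoxD genes, against 8.48% of all genes tested, and above all of them for 0 of the 9, against 10.1%.

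The makeup of HoxD RNA differed most at the posterior end of the cluster. Hoxd12 and Hoxd13 together took 39.5%, 38.3%, 37.6% and 38.3% of the summed TPM of the 10 genes in wildtype libraries and 29.1% and 25.6% in transgenic libraries. The groups were widely separated. Hoxd13 alone went from 13.7 ± 0.570% (SD, n = 4) to 8.97 ± 0.141% (SD, n = 2), and Hoxd12 from 24.7 ± 1.11% to 18.4 ± 2.64%. As shares add to 100%, those of the other HoxD genes were higher: Hoxd8 to Hoxd11 took 51.3 ± 0.874% in wildtype and 59.7 ± 2.30% in transgenic libraries, and Hoxd1 to Hoxd4 10.3 ± 0.653% and 12.9 ± 0.199%. Summed TPM itself was 1172, 1342, 1329 and 1239 in wildtype and 1195 and 1083 in transgenic libraries, with 1 transgenic library inside the wildtype range and 1 below it.

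**Figure D3:**
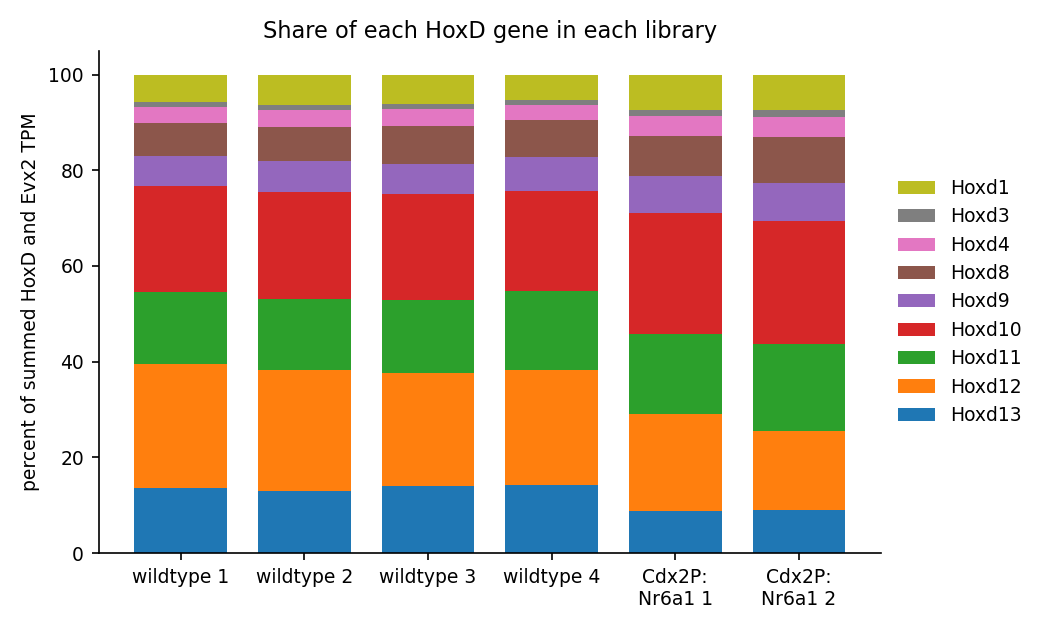
Percent of the summed TPM of Evx2 and the HoxD genes (y axis) taken by each HoxD gene in each of the 6 libraries (x axis), stacked from Hoxd13 at the bottom to Hoxd1 at the top, with Evx2 too small to draw. The bottom segments, Hoxd13 and Hoxd12, add to between 37.6% and 39.5% in the wildtype libraries and to 29.1% and 25.6% in the transgenic libraries.

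Ratios of neighbouring genes within each library were set out pair by pair along the cluster. Of the 9 neighbouring pairs from Evx2/Hoxd13 to Hoxd3/Hoxd1, the groups were separate only for Hoxd12/Hoxd11. Its log2 TPM ratio was 0.79, 0.77, 0.62 and 0.54 in wildtype and 0.28 and -0.13 in transgenic libraries. Hoxd12 thus went from clearly above Hoxd11 to near it. The difference was -0.61 (two-sided exact permutation p = 0.067, the smallest that 4 against 2 libraries allow, adjusted p = 0.60 over the 9 pairs), so the design could not reach the threshold. Without Cdx2P:Nr6a1 replicate 2 it was -0.40 and without replicate 1 -0.81. The Hoxd13/Hoxd12 ratio was -0.85 ± 0.12 in wildtype and -1.03 ± 0.23 in transgenic libraries (difference -0.18, exact permutation p = 0.267). That difference rested on which transgenic library was used, at -0.014 without replicate 1 and -0.34 without replicate 2. The other 7 pairs differed by between -0.07 and 0.13 with exact permutation p from 0.467 to 0.933. Plain TPM ratios of other pairs were chosen after the values were seen. Hoxd13/Hoxd10 was 0.613, 0.577, 0.63 and 0.680 in wildtype and 0.351 and 0.353 in transgenic libraries. Hoxd13/Hoxd11 was 0.912, 0.870, 0.921 and 0.857 in wildtype and 0.531 and 0.501 in transgenic libraries. Hoxd12/Hoxd10 was above 1 in all 4 wildtype libraries, from 1.06 to 1.16, and 0.802 and 0.642 in the transgenic libraries.

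The genes around the cluster showed no call. Between Atp5g3, a mitochondrial ATP synthase gene on the Evx2 side, and Hnrnpa3, an RNA-binding protein gene beyond Hoxd1, the annotation holds 37 genes outside the set, those flanks included, of which 13 passed the filter and 0 were called by edgeR in either direction (3 with an unadjusted p under 0.05), with a median log2 fold change of 0.07. Lnpk, which encodes an endoplasmic reticulum junction protein and flanks the posterior side, was at 31.1 to 33.3 CPM in wildtype and 31.4 and 26.4 CPM in transgenic libraries (log2 fold change -0.17, SE 0.073, edgeR adjusted p = 0.452). Mtx2, a mitochondrial import gene beyond the anterior side, was at 120 to 129 CPM in wildtype and 132 and 118 CPM in transgenic libraries (log2 fold change 0.01, SE 0.057, edgeR adjusted p = 0.978). Atp5g3 and Hnrnpa3 themselves had log2 fold changes of -0.03 (SE 0.044) and -0.01 (SE 0.058).

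Transcripts within and beyond the anterior end included several non-coding genes. The antisense transcript Hoxd3os1 was at 12.0 to 15.3 CPM in wildtype and 14.97 and 14.1 CPM in transgenic libraries, and Haglr, which is read away from Hoxd1, at 26.4 to 31.4 CPM and 31.9 and 29.1 CPM. Both overlapped between groups. Gm28230, which shares exons with Hoxd3 and Hoxd4, was at 11.9 to 14.8 CPM in wildtype and 17.3 and 15.1 CPM in transgenic libraries (log2 fold change 0.25, SE 0.11, edgeR adjusted p = 0.485). In the gene desert beyond Mtx2, Gm13652 was at 9.44 to 14.5 CPM in wildtype and 17.1 and 17.5 CPM in transgenic libraries (log2 fold change 0.41, SE 0.16, edgeR adjusted p = 0.347). Next to it 2600014E21Rik was at 3.004 to 4.30 CPM in wildtype and 4.88 and 4.50 CPM in transgenic libraries (log2 fold change 0.43, SE 0.16, edgeR adjusted p = 0.329). For those last 3 genes both transgenic libraries exceeded all wildtype libraries. Gm13652 was called in 1 of 15 alternative fits, that with no filter on low counts (edgeR adjusted p = 0.015).

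**Figure D4:**
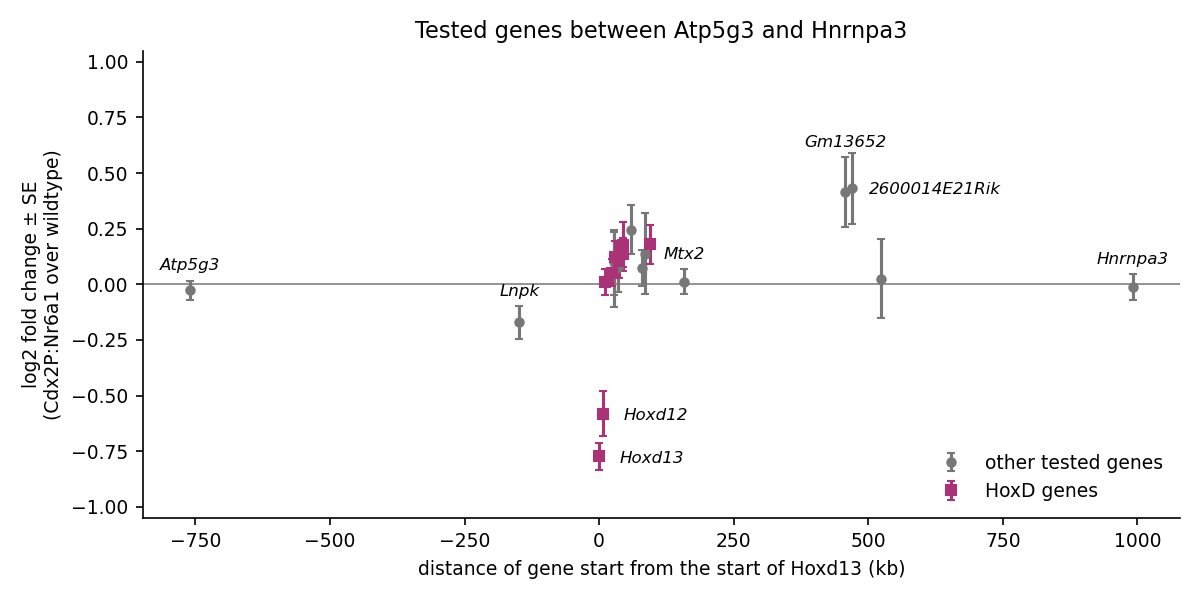
Fitted log2 fold change with its standard error (y axis) of the tested genes between Atp5g3 and Hnrnpa3 against the distance of the gene start from that of Hoxd13 in kb (x axis), with HoxD genes as squares and the other 13 genes as grey circles. Hoxd13 and Hoxd12 lie apart at -0.77 and -0.58, and the flanking genes lie between -0.17 and 0.43.

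The other Hox clusters hold paralogues of the HoxD genes, which arose from the same ancestral gene and have related functions. The list of all HoxA, HoxB and HoxC genes and Evx1 held 31 genes, of which 21 pair with a member of the set. The others belong to groups without a HoxD gene. All 31 were tested, 3 were called lower and 4 higher, with a median log2 fold change of 0.09. Those called lower were the group 13 genes Hoxa13, Hoxb13 and Hoxc13, and those called higher were Hoxa9, Hoxa11, Hoxc8 and Hoxc10. In wildtype, Hoxd13 at 174 TPM stood above Hoxa13 at 98.7 ± 7.91 TPM and below Hoxb13 at 274 ± 35.8 TPM and Hoxc13 at 362 ± 20.1 TPM. In the transgenic libraries Hoxd13 at 102 ± 5.50 TPM was above Hoxa13 at 63.4 ± 10.3 TPM and about level with Hoxb13 at 94.4 ± 4.85 TPM, with Hoxc13 still higher at 194 ± 20.9 TPM.

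The fall of Hoxd13 was intermediate among the group 13 genes by the fitted values, which were -0.65 for Hoxa13 (SE 0.094), -0.91 for Hoxc13 (SE 0.074) and -1.54 for Hoxb13 (SE 0.12). The log2 TPM ratio of Hoxd13 to Hoxb13 was between -0.98 and -0.38 in wildtype and 0.12 and 0.11 in transgenic libraries, with no overlap (difference 0.76, two-sided exact permutation p = 0.067, adjusted p = 0.156 over 21 paralogue pairs). Those of Hoxd13 to Hoxa13 and to Hoxc13 overlapped between groups, with differences of -0.12 and 0.13 (exact permutation p = 0.333 for each). Hoxd12 has a single paralogue, Hoxc12, which was at 348 ± 18.7 TPM in wildtype and 308 ± 33.6 TPM in transgenic libraries (log2 fold change -0.18, SE 0.066, edgeR adjusted p = 0.327). The Hoxd12/Hoxc12 log2 TPM ratio was -0.18 to -0.12 in wildtype and -0.46 and -0.67 in transgenic libraries (difference -0.41, exact permutation p = 0.067, adjusted p = 0.156).

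Hoxd11 stood beside a gene that rose and a gene that did not. Hoxa11 was at 50.4 ± 3.89 TPM in wildtype and 110 ± 11.5 TPM in transgenic libraries (log2 fold change 1.12, SE 0.072, edgeR adjusted p = 0.00048), and Hoxc11 at 180 ± 7.18 TPM and 182 ± 14.8 TPM (log2 fold change 0.02, SE 0.054, edgeR adjusted p = 0.967). The Hoxd11/Hoxa11 log2 TPM ratio was 1.96 ± 0.068 in wildtype and 0.85 ± 0.17 in transgenic libraries, without overlap (exact permutation p = 0.067, adjusted p = 0.156), while that of Hoxd11/Hoxc11 was 0.12 in both groups. The groups were also separate for Evx2/Evx1, Hoxd10/Hoxc10, Hoxd9/Hoxa9, Hoxd8/Hoxc8, Hoxd3/Hoxb3 and Hoxd1/Hoxb1. Each of these pairs had the same exact permutation p of 0.067 (adjusted p = 0.156), so separation was not confined to the posterior groups. Over all 21 pairs no adjusted p could pass 0.05, since each raw p is at least 0.067.

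**Figure D5:**
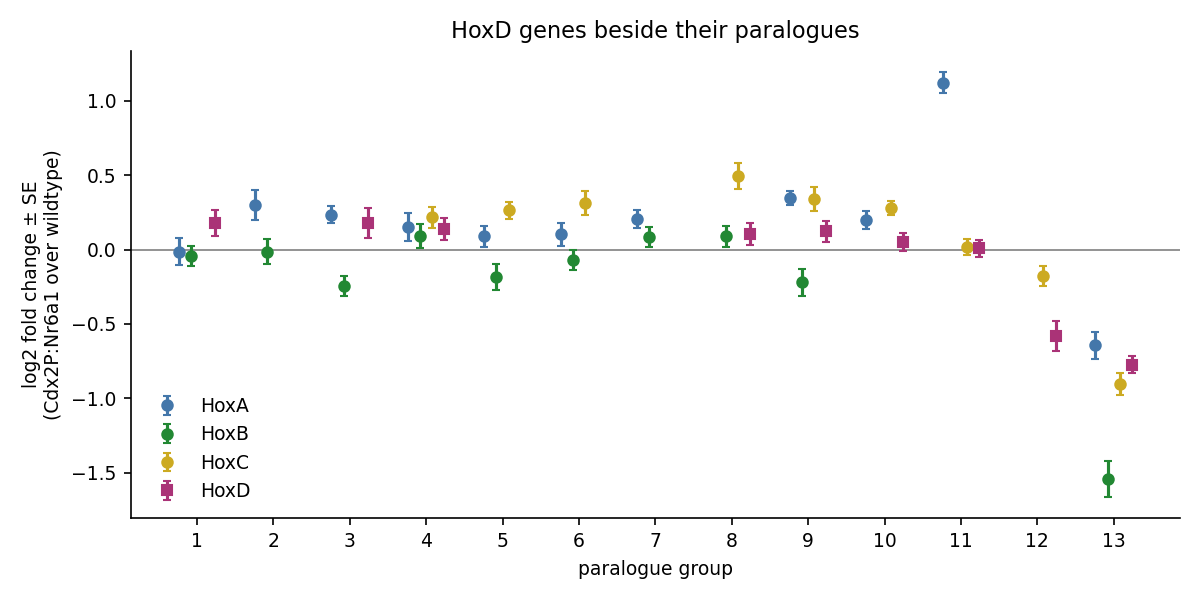
Fitted log2 fold change with its standard error (y axis) of each Hox gene by paralogue group (x axis), with HoxD genes as squares and HoxA, HoxB and HoxC genes as circles. Group 13 genes lie between -1.54 and -0.65, Hoxd12 at -0.58 lies below Hoxc12 at -0.18, and Hoxd11 at 0.01 lies beside Hoxc11 at 0.02 and far below Hoxa11 at 1.12.

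Genes known to act with or on the Hox clusters moved in both directions. Of 9 genes for TALE homeodomain proteins, the Pbx, Meis and Pknox cofactors with which Hox proteins bind DNA, 1 was called higher, Pknox2 (log2 fold change 0.61, SE 0.12, edgeR adjusted p = 0.0442), and 0 lower, with a median of 0.10. Of 9 caudal regulators 2 were called higher and 2 lower, with a median of -0.10. Cdx2, a direct regulator of Hox genes in the tailbud whose promoter sequence drives the transgene, had a log2 fold change of 0.35 (SE 0.065, edgeR adjusted p = 0.034), and Cyp26a1, which degrades retinoic acid, of 0.73 (SE 0.13, edgeR adjusted p = 0.0315). Cdx1 had a log2 fold change of -0.60 (SE 0.11, edgeR adjusted p = 0.0313) and Aldh1a2, which makes retinoic acid, of -1.25 (SE 0.16, edgeR adjusted p = 0.0069).

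The genes whose pattern over the 6 libraries was most like that of Hoxd13 were Nos1, Sv2b and Nfib, with root mean square differences of 0.050, 0.065 and 0.084 in log2 CPM relative to the wildtype mean. For Hoxd12 they were Bcl11a, Cpt1a and Hoxa13, at 0.043, 0.049 and 0.068. As for Hoxd12, Hoxa13 was lower in replicate 2 (-0.81) than in replicate 1 (-0.49). They were the nearest of 12733 genes by a measure that uses the group difference, so the likeness is a description.

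Markers of cell types that the dissected tissue could hold are given beside these values, and their part in the HoxD differences was not tested. Calls were made in 3 lists beyond the caudal regulators: 2 of 4 tested neural tube markers were higher (Sox1 and Sox3; summed level of the list 80.2 to 97.3 TPM in wildtype, 97.6 and 124 TPM in transgenic libraries, with Olig2 at 0 in every library), 1 of 8 hindgut and tailgut markers was higher (Krt18; summed 645 to 766 TPM against 907 and 790 TPM), and 3 of 8 tailbud progenitor markers were called, Cdx2 and Cyp26a1 higher and Sp5 lower (summed 3409 to 4009 TPM against 4361 and 3669 TPM). Presomitic mesoderm markers had 0 of 6 tested genes called, with a summed level of 2555 to 2675 TPM in wildtype and 2260 and 2208 TPM in transgenic libraries. No call was made among the tested somite (2), hindlimb and ventral caudal mesoderm (1), surface ectoderm (5), erythroid (6), endothelium (5) or macrophage (3) markers. The posterior HoxD genes are also active in limb-type tissue. The 8 hindlimb and ventral caudal mesoderm markers summed to 4.59 to 7.15 TPM in wildtype and 3.85 and 11.7 TPM in transgenic libraries. Cdx2P:Nr6a1 replicate 2 was thus above every wildtype library, at low levels where 1 of the 8 genes passed the filter.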

How the data were processed

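RNA from E10.5 mouse tailbuds was sequenced by the authors as stranded mRNA libraries with 75 bp single-end reads. The submitters' processing notes name STAR, mm10 and edgeR, and the counting program and versions are not given in the sources used here. Deposited values were raw counts per gene with each gene's exon length, and a further deposited table of the authors' own fold changes and p-values was not used. CPM was computed from column totals and TPM from exon lengths. Exon bases shared by 2 genes appear to have been counted for neither: of 1155 genes with wholly shared exons, 0 had over 10 counts, so the TPM of overlapping genes is understated.

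A gene was tested where 2 or more libraries had both over 10 counts and over 2 CPM, which left 12733 genes for edgeR 4.0.16 (TMM scaling, quasi-likelihood test, Benjamini-Hochberg adjustment; R 4.3.3). Intervals use the standard error and degrees of freedom of that fit. The fits were tested on simulated data. Ratios were compared by two-sided exact permutation tests over libraries. Alternatives were the likelihood ratio test, DESeq2 1.42.0, voom in limma 3.58.1, robust estimation, other scalings and filters, a Y-linked covariate, a replicate block and leaving out each library.

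Named were the 10 genes, Nr6a1, neighbours kept by the filter, called genes of the lists, paralogues of called genes and the 3 genes nearest in pattern. Hoxc11, Evx1, T, Olig2 and Lyz2 were named after their values were seen. Members and lists were chosen with earlier results of these data known. Each embryo gave 1 library, so p-values measure the spread between embryos. Promoter sequences are from RefSeq on GRCm38.p6.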

Additional observations from a re-analysis of the deposited data

How the results depend on the processing

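Hoxd13 stayed called under all 15 alternatives, and Nr6a1 likewise, with leave-one-out log2 fold changes from -0.82 to -0.72 and from 2.11 to 2.65. Hoxd12 lost its call under robust estimation (log2 fold change -0.58, edgeR adjusted p = 0.0514), where the number of genes called lower went from 2 to 1, and under 4 of the 6 fits that left out a library (log2 fold changes over the 6 from -0.81 to -0.38, number called lower from 1 to 2); fewer samples were fitted there. With 1 transgenic library left, it was assumed to vary like the others. Hoxd11 ranged from -0.030 (without wildtype replicate 1, a change of sign) to 0.036 on leaving out a library. With the replicate number as a block, Hoxd13 was -0.72 and Hoxd12 -0.64. There 2 genes were called lower and 0 higher, and no call of a HoxD gene changed. The deviations of same-numbered libraries correlated at 0.32 and -0.28. With 2 transgenic libraries those values are not independent, so they cannot say whether the numbers pair anything.

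Of the 9 neighbour differences, 5 changed sign on leaving out a library: Evx2/Hoxd13 (main 0.13) ranged from -0.010 to 0.23, Hoxd11/Hoxd10 (-0.04) from -0.087 to 0.017 with 0.0035 without Cdx2P:Nr6a1 replicate 1, Hoxd9/Hoxd8 (0.02) from -0.049 to 0.086 with -0.024 without wildtype replicate 3, Hoxd8/Hoxd4 (-0.03) from -0.095 to 0.032, and Hoxd3/Hoxd1 (-0.0044) from -0.025 to 0.0092 with 0.0079 without wildtype replicate 1. The other 4 kept their sign: Hoxd12/Hoxd11 from -0.81 to -0.40, Hoxd13/Hoxd12 from -0.34 to -0.014, Hoxd10/Hoxd9 from -0.14 to -0.043 and Hoxd4/Hoxd3 from -0.071 to -0.014. With shares of counts in place of TPM, the difference in share was 3.13 points for Hoxd11, 2.41 for Hoxd10, 0.444 for Hoxd3 and 1.11 for Hoxd1, against 1.97, 3.52, 0.279 and 1.57 points. Over all genes, 203 were called in the main fit, 477 by DESeq2, 401 by the likelihood ratio test, 876 with no filter, 442 with the block, 134 without wildtype replicate 4 and 61 without either transgenic library.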

Other observations

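The order of levels changed where TPM was computed over the exon bases that no other gene covers, an alternative chosen after seeing the data. Hoxd4 then averaged 87.2 ± 9.08 TPM in wildtype (SD, n = 4), above Hoxd9 at 79.0 ± 6.51 TPM and Hoxd1 at 71.0 ± 9.02 TPM, where over all of its exon bases it had been below both. Hoxd3 went to 34.3 ± 3.91 TPM. Hoxd12 at 301 ± 17.7 TPM, Hoxd10 at 284 ± 22.6 TPM, Hoxd11 at 210 ± 14.7 TPM and Hoxd13 at 167 ± 10.6 TPM remained the top 4 in the same order. In the transgenic libraries the means of Hoxd11, at 212 ± 2.30 TPM (SD, n = 2), and Hoxd12, at 201 ± 42.4 TPM, changed places, but within each library the order was kept, with Hoxd12 the higher in replicate 1 and Hoxd11 in replicate 2 on both scales.

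Hoxd4 shares 1154 exon bases with Gm28230 and 388 with Hoxd3, and Hoxd3 shares 2225 with Gm28230. Hoxd11 shares 10.8% and Hoxd10 5.73% of their exon bases, with Gm28309. Evx2, Hoxd13, Hoxd12, Hoxd9, Hoxd8 and Hoxd1 share none, so the falls of Hoxd13 and Hoxd12 were measured on exons of their own.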
